A study of Mus musculus and Rattus norvegicus with 79 samples.

Results

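The departure of combined dexamethasone and insulin treatment from the product of both single treatments was measured in primary hepatocytes of male Sprague Dawley rats. All 12 rat hepatocyte libraries, of 79 samples in the series, were used, with 3 libraries per group, and the other 67 samples come from mouse liver and were not compared. The groups were Dex+Ins (500 nM dexamethasone for 2.5 h and human insulin for 2 h), Dex (500 nM dexamethasone for 2.5 h), Ins (human insulin for 2 h) and Veh (vehicle, in columns named for ethanol). No label gives the insulin dose of the stimulation. Cells of all groups, vehicle included, had been plated with 100 nM dexamethasone, kept overnight with 1 nM human insulin and deprived of serum for 4 h, so no group was naive to either hormone. No virus had been given to the rats. Libraries were made from polyA RNA. The labels do not say whether libraries of a group came from separate rats or cultures, so p-values measure only the spread between these libraries, which may be technical.

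Glucocorticoids such as dexamethasone bind the glucocorticoid receptor, a transcription factor that then moves to the nucleus and binds DNA. Insulin acts through a receptor tyrosine kinase and the kinase AKT, which keeps FOXO transcription factors out of the nucleus. In liver, glucocorticoids are known for raising genes of glucose production and amino acid breakdown, and insulin is known for repressing genes of glucose production and raising genes of glycogen and lipid synthesis. The rat transcripts carry RefSeq identifiers only, which could not be paired with gene names here, so single transcripts are described by their measured behaviour and no function is assigned to them. For the same reason the hepatocyte label could not be checked against marker genes, nor could markers of other liver cells be counted.

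Library totals ran from 9804371 to 24217893 counts, both in Dex libraries, and 10843 distinct transcript rows were tested. The biological coefficient of variation between libraries of a group was 5.04%. The first and second principal components, which took 30.8% and 23.2% of the variance, separated the 4 groups with no overlap. Library A of Dex+Ins stood apart in 5 rows that were at least 10-fold higher in it than in the mean of the other Dex+Ins libraries. Those rows held 1.21% of its counts, against 0.0247% to 0.132% in the other 11 libraries, and none of them passed the test of the interaction.

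Few hepatocyte transcripts departed, past the test, from the product of the single fold changes, and most that did were lower than that product under both hormones. The interaction was the log2 effect of dexamethasone with insulin (Dex+Ins minus Ins) minus its log2 effect alone (Dex minus Veh), so that 0 means that fold changes multiply. It passed an adjusted p of 0.05 (edgeR's quasi-likelihood test, Benjamini-Hochberg over all transcripts tested) for 72 transcripts, or 0.664% of those tested. Of these, 9 were positive (0.083% of those tested) and 63 were negative (0.581%). Over the 72 the interaction ran from -2.62 to 1.63 with a median of -0.41 on the log2 scale, against a median of 0.0022 over all transcripts tested, of which 49.4% were negative. At an unadjusted p under 0.05 there were 412 positive and 729 negative interactions. An interaction of at least 1.5-fold in either direction was reached by 20 of the 72 (0.184% of those tested), 3 of them positive and 17 negative, and 9 reached at least 2-fold.

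The count of 72 rested on few libraries in each group. It was 45 without Veh library A, 47 without Veh library B, 45 without Ins library C and 109 without Ins library A. The share of negative interactions among those called was between 82% and 90.1% whichever of the 12 libraries was left out. Without Dex+Ins library A, 81 transcripts passed, of which 62 were among the 72. Rows of isoforms can count the same reads, and the 72 rows stood for 69 distinct groups of reads when rows that agreed within 1% in every library were joined.

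The interval around the interaction also bounds how large a departure from additivity could be on the log2 scale. The 95% confidence interval lay wholly within 1.5-fold of 0 in either direction for 8759 transcripts, 80.8% of those tested. That margin is wide against typical single effects. Among transcripts that rose or fell with dexamethasone averaged over both insulin states, its median log2 effect alone was 0.185 or -0.167. Loss of a whole effect of that size could lie within the margin. Also, 5927 of those tested passed for neither hormone's averaged effect, so the share does not show that hormone effects added. Dexamethasone alone changed 1139 transcripts (10.5%) and insulin alone changed 1791 (16.5%), and 425 passed both tests. Among these 425, the interval lay wholly within 1.5-fold for 372, and the interaction itself passed the test for 32. The median transcript's interval, which is not adjusted for multiple tests, reached 0.198 on the log2 scale to each side of the estimate. A call after adjustment needed a larger departure than that at the same precision.

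The 72 transcripts were sorted into classes by fitted log2 effects against vehicle. Synergistic induction means that the fitted level with both hormones was above vehicle, above each hormone alone and above the product of the single effects, and synergistic repression means that it was below all of these. These names refer to direction only. In 1 of 9 synergistic inductions and 8 of 18 synergistic repressions, the combined effect was nearer vehicle than a single effect of the opposite sign. A blunted induction or repression means that the hormone with the larger single effect had less effect in the presence of the other. Synergy classes were assigned first, and blunted classes only to the remaining transcripts. Without that order, each synergy member whose larger single effect opposed the sign of its interaction would have been sorted as blunted. These include that 1 induction, those 8 repressions and further members of both classes. The inductions among them would have counted as blunted repressions. There were 9 transcripts in synergistic induction, 18 in synergistic repression, 34 with a blunted dexamethasone induction and 4 with a blunted insulin induction. No transcript outside the synergy classes had a blunted repression by either hormone, and 7 negative interactions fell outside all of these classes. The single effects share libraries with the interaction, so class sizes are descriptions without a test.

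**Figure D1:**
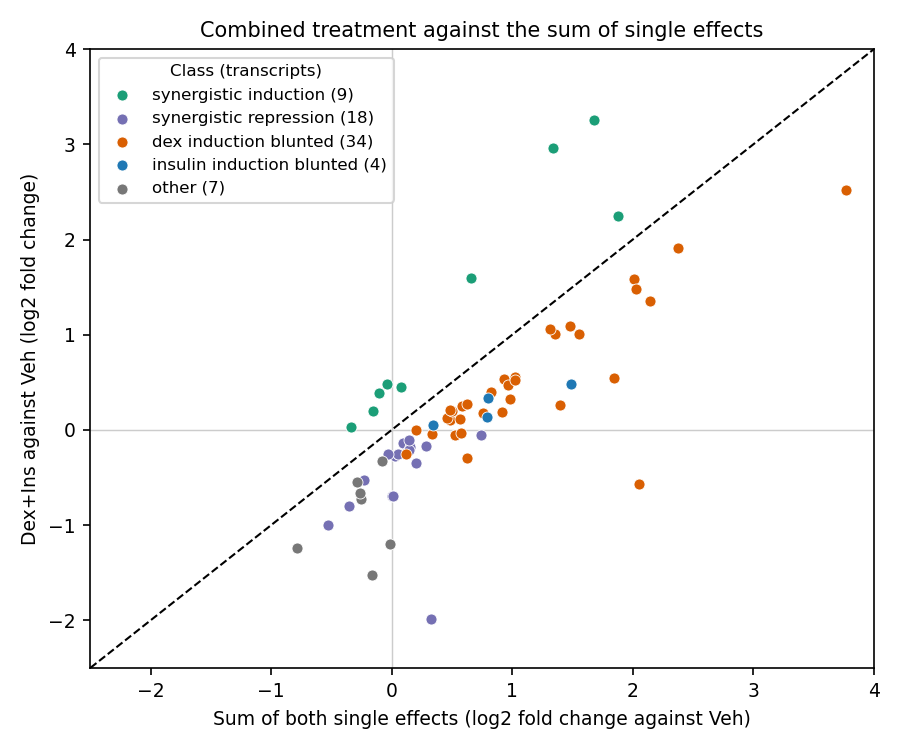
Log2 effect of Dex+Ins against Veh (vertical axis) plotted against the sum of the log2 effects of Dex and of Ins against Veh (horizontal axis) for the 72 transcripts with a called interaction, 1 point per transcript and coloured by class. The dashed line marks equality; the 9 synergistic inductions lie above it and the 63 negative interactions below it.

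Synergistic induction held all 9 positive interactions, with a median interaction of 0.50 and a range of 0.35 to 1.63. The rule places the fitted Dex+Ins level above Veh, Dex and Ins. The direction of those contrasts was thus fixed, and selection by the interaction favours their passing. All 9 passed as higher with dexamethasone in the presence of insulin, a contrast in which 952 transcripts rose (8.78%). All 9 also passed as higher with insulin in the presence of dexamethasone, where 1217 transcripts rose (11.2%). With dexamethasone alone 2 rose (background 5.64%), 1 fell (background 4.86%) and 6 did not pass, and with insulin alone 4 rose (background 8.65%) and 5 did not pass. Thus 3 of the 9 passed neither single test while rising with both hormones against vehicle (background 16.1%).

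The clearest example by p among transcripts with a mean of at least 5 CPM (counts scaled to the library's total, with TMM factors, and not divided by transcript length) was NM_001270850. Its level was 23.4, 23.5 and 22.003 CPM in Dex+Ins libraries, 4.17, 3.80 and 3.59 CPM in Dex libraries, 5.86, 6.17 and 4.74 CPM in Ins libraries, and 3.63, 3.18 and 2.37 CPM in Veh libraries. All Dex+Ins libraries were far above the other 9, while Dex and Veh libraries overlapped. Dexamethasone raised it 4.11-fold with insulin, against 1.33-fold alone (adjusted p = 0.141 alone, edgeR). Insulin raised it 5.86-fold with dexamethasone and 1.90-fold alone. The combined effect was 7.81-fold over vehicle, where the product of the single effects would give 2.53-fold. The interaction was 1.63 ± 0.20 (SE, n = 3 per group; 95% interval 1.20 to 2.05; adjusted p = 8.62e-05, edgeR). It was a transcript of low level, with a mean of 8.86 CPM over all libraries. The synergistic induction with the next largest interaction ran in parallel, at 20.2, 20.4 and 19.3 CPM in Dex+Ins libraries, 3.33, 2.64 and 2.61 CPM in Dex libraries, 4.89, 5.23 and 4.27 CPM in Ins libraries, and 2.70, 2.75 and 1.33 CPM in Veh libraries. Whether these rows count some of the same reads was not tested, since no annotation of them was used here.

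A transcript of higher level behaved differently within the class, since each hormone raised it on its own. NM_001009965 had 417.4, 412.4 and 394.6 CPM in Dex+Ins libraries, 205.4, 194.0 and 199.7 CPM in Dex libraries, 129.7, 136.0 and 140.6 CPM in Ins libraries, and 88.6, 82.1 and 86.2 CPM in Veh libraries. No groups overlapped, and the order was Dex+Ins, Dex, Ins and Veh in every library. Dexamethasone raised it 3.01-fold with insulin, against 2.33-fold alone. The combined effect was 4.76-fold against an expected 3.68-fold, an interaction of 0.37 ± 0.06 (SE, n = 3 per group; adjusted p = 0.00208, edgeR). It was the only synergistic induction in which each hormone alone passed the test as higher.

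**Figure D2:**
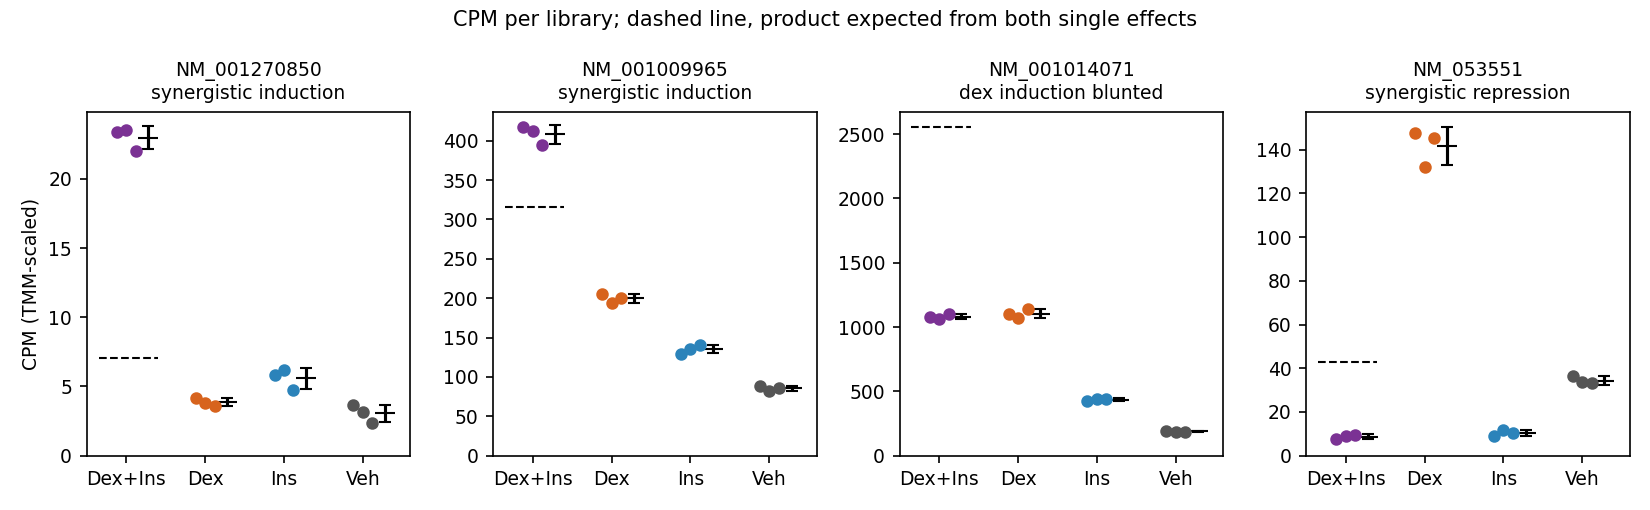
CPM (vertical axes) of 4 transcripts in each library of Dex+Ins, Dex, Ins and Veh, with points for libraries and the mean and SD of 3 libraries per group. The dashed line is the Dex+Ins level that the product of the mean single fold changes would give; Dex+Ins libraries lie above it for NM_001270850 and NM_001009965 and below it for NM_001014071 and NM_053551.

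The remaining synergistic inductions were smaller or lower in level. The 9 had a median mean level of 25.1 CPM, against 31.5 CPM over all transcripts tested. The class held 1 transcript in which dexamethasone had effects of opposite sign, both past the test. Its level was 41.8, 39.2 and 38.6 CPM in Dex+Ins libraries, 33.2, 34.7 and 32.2 CPM in Dex libraries, 35.8, 33.8 and 37.8 CPM in Ins libraries and 39.5, 38.6 and 38.8 CPM in Veh libraries. Dexamethasone raised it by 0.15 on the log2 scale with insulin and lowered it by a log2 change of -0.22 alone, each of which left no overlap between libraries. Against vehicle, both hormones together gave a log2 effect of 0.03 ± 0.05 (SE, n = 3 per group), which did not pass the test, and Dex+Ins and Veh libraries overlapped, so it was not an induction over vehicle. The class had 5 members, in place of 9, without Veh library A, Veh library B, Dex library C or Ins library C.

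A blunted dexamethasone induction was the largest class. With insulin present, dexamethasone raised 26 of the 34 transcripts (background 8.78%) and 8 did not pass, with a median log2 effect of 0.40. Dexamethasone alone raised all 34, with a median log2 effect of 0.98, a direction that the rule of the class fixes. The median fold change was thus 1.32 with insulin, against 1.98 alone. Between 3.72% and 83.2% of the log2 dexamethasone effect was kept with insulin, with a median of 47.4%, and 18 of 34 kept less than 50%. The 34 were chosen by the difference between these same effects, so a smaller effect with insulin follows from the choice. The kept shares are thus no estimate for other induced transcripts. Insulin lowered 32 of the 34 in the presence of dexamethasone (background 11.9%). That effect is the insulin effect alone plus the interaction, so choice by a negative interaction favours a fall. Without dexamethasone, insulin lowered 14 (background 7.87%), raised 3 (background 8.65%) and left 17 not past the test. Against vehicle, both hormones together left 22 of the 34 higher (background 16.1%), 3 lower (background 15.6%) and 9 not past the test.

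NM_001014071 had the smallest interaction p of all transcripts tested. Its level was 1079.8, 1064 and 1099 CPM in Dex+Ins libraries, 1103, 1070.4 and 1137 CPM in Dex libraries, 423.3, 439.4 and 444.3 CPM in Ins libraries, and 195.0, 185.5 and 183.6 CPM in Veh libraries. Dex+Ins and Dex libraries overlapped, and both groups were above all Ins libraries, which were above all Veh libraries. Dexamethasone raised it 2.48-fold with insulin, against 5.87-fold alone. Insulin gave a fold of 0.98 with dexamethasone (adjusted p = 0.615, edgeR), against 2.32 alone. The combined effect of 5.75-fold stood against an expected 13.6-fold, and the interaction was -1.24 ± 0.05 (SE, n = 3 per group; 95% interval -1.35 to -1.13; adjusted p = 1.41e-12, edgeR).

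Other members of the class are described here without identifiers and were chosen after their values were seen. The transcript with the most negative interaction of the class had 3.08, 3.31 and 4.14 CPM in Dex+Ins libraries, 36.5, 35.3 and 41.1 CPM in Dex libraries, 2.77, 3.52 and 2.63 CPM in Ins libraries, and 5.65, 4.30 and 5.42 CPM in Veh libraries. Only the Dex libraries were high, and Dex+Ins and Ins libraries overlapped. Its dexamethasone effect was 0.22 ± 0.17 with insulin (adjusted p = 0.387, edgeR), against 2.84 ± 0.10 alone, on the log2 scale (SE, n = 3 per group). A highly expressed transcript kept much of its induction. It had 1947, 1941 and 1954 CPM in Dex+Ins libraries, 3277, 3112 and 3436 CPM in Dex libraries, 775.0, 780.5 and 788.1 CPM in Ins libraries, and 788.1, 733.8 and 762.8 CPM in Veh libraries. Insulin alone did not separate it from vehicle, since Ins and Veh libraries overlapped, yet Dex+Ins libraries were all below Dex libraries. Its dexamethasone effect was 1.32 ± 0.04 with insulin and 2.10 ± 0.04 alone on the log2 scale (SE, n = 3 per group).

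**Figure D3:**
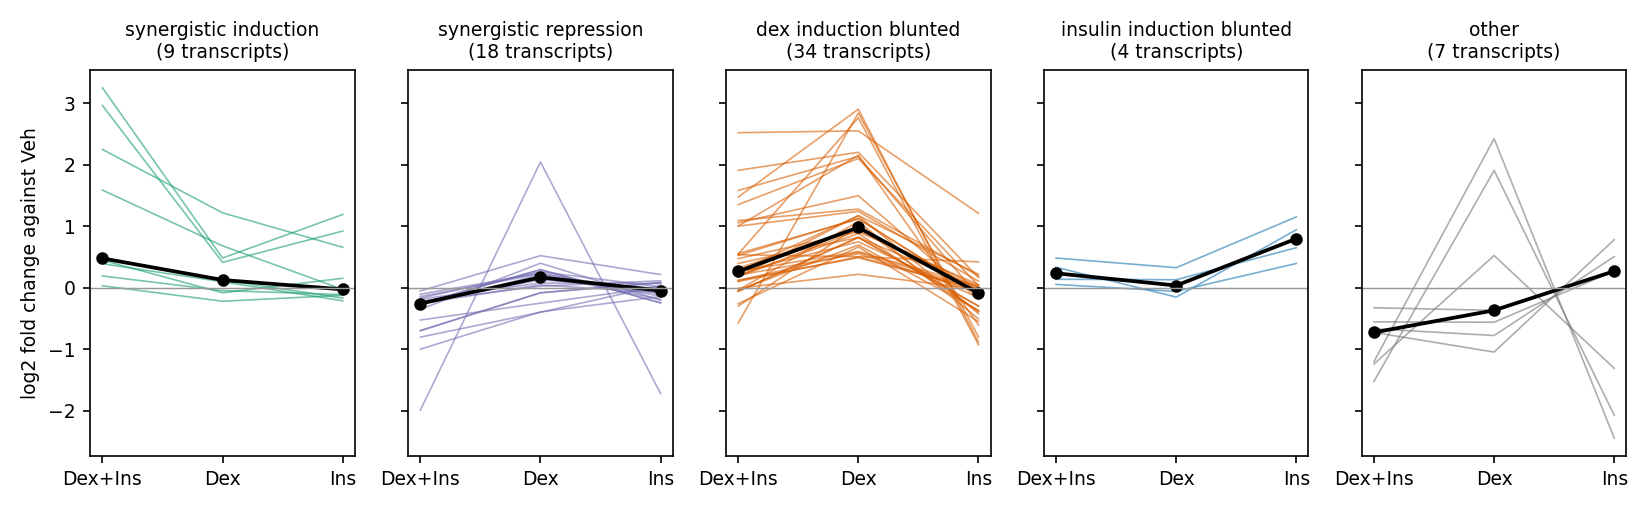
Log2 change against Veh (vertical axis) in Dex+Ins, Dex and Ins for each transcript with a called interaction, in 1 panel per class, with a coloured line per transcript and the class median in black. In the panel of blunted dexamethasone induction, all 34 lines are above 0 for Dex and the median is 0.27 for Dex+Ins.

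Synergistic repression, as the rule defines it, held transcripts of unlike behaviour under dexamethasone alone. The rule places the fitted Dex+Ins level below Dex and Ins, so the direction of both contrasts was fixed. All 18 transcripts passed as lower with insulin in the presence of dexamethasone (background 11.9%). With dexamethasone in the presence of insulin 10 passed as lower (background 11%), while 8 did not pass. With dexamethasone alone 9 rose (background 5.64%), 3 fell (background 4.86%) and 6 did not pass. The 9 that rose with dexamethasone alone had a median log2 effect of -0.09 with insulin, where 1 fell and 8 did not pass, and of 0.30 alone. The 6 that did not pass with dexamethasone alone all fell with dexamethasone in the presence of insulin, by log2 changes of -0.78 to -0.17. The 3 that fell with dexamethasone alone fell by more with insulin, with log2 effects of -0.86 to -0.54 with insulin and of -0.40 to -0.25 alone.

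NM_053551, which rose with dexamethasone alone, had the most negative interaction of the class. Its level was 7.43, 8.995 and 9.58 CPM in Dex+Ins libraries, 147.9, 131.9 and 145.5 CPM in Dex libraries, 8.89, 11.8 and 10.4 CPM in Ins libraries, and 36.5, 33.5 and 33.1 CPM in Veh libraries. Dex libraries were the highest by a wide margin, and Dex+Ins and Ins libraries overlapped at the bottom. Dexamethasone gave a fold of 0.829 with insulin (adjusted p = 0.0927, edgeR), against 4.13 alone. Insulin gave a fold of 0.0609 with dexamethasone and of 0.304 alone. With both hormones the level was 0.252 of vehicle, where the product would give 1.26. Its place in the class thus rests on a fitted level with both hormones slightly below that with insulin alone, a difference that did not pass the test, while dexamethasone alone gave a large increase. The interaction was -2.32 ± 0.13 (SE, n = 3 per group; 95% interval -2.59 to -2.05; adjusted p = 2.33e-10, edgeR).

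A different behaviour is shown by a transcript that neither hormone alone changed past the test, chosen after its values were seen. It had 11.001, 9.69 and 10.4 CPM in Dex+Ins libraries, 17.1, 14.5 and 16.0 CPM in Dex libraries, 17.1, 19.3 and 17.1 CPM in Ins libraries and 17.0, 16.3 and 17.0 CPM in Veh libraries. Only the Dex+Ins libraries were low, and they overlapped no other group. Its dexamethasone effect was -0.78 ± 0.09 with insulin and -0.08 ± 0.08 alone on the log2 scale (SE, n = 3 per group), with an interaction of -0.70 ± 0.12 (adjusted p = 0.00326, edgeR). The size of the class depended on single libraries. It held 11 transcripts without Veh library A or without Veh library B, 8 without Ins library C, 39 without Ins library A and 28 without Dex+Ins library A.

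Blunting also ran in the other direction, with dexamethasone limiting an insulin induction, in 4 transcripts. In the presence of dexamethasone insulin raised 1 of them (background 11.2%) and 3 did not pass. Insulin alone raised all 4, a direction that the rule fixes, by 0.40 to 1.16 on the log2 scale. Dexamethasone lowered all 4 in the presence of insulin (background 11%), and alone it raised 1 (background 5.64%) and left 3 not past the test. Its effect with insulin is its effect alone plus the interaction, so choice by a negative interaction favours that fall. The transcript with the most negative interaction of the 4 had 26.3, 27.6 and 23.9 CPM in Dex+Ins libraries, 24.1, 21.9 and 24.16 CPM in Dex libraries, 38.8, 44.8 and 40.3 CPM in Ins libraries, and 18.1, 19.5 and 18.2 CPM in Veh libraries. Each hormone alone put all its libraries above vehicle, but Dex+Ins libraries were below all Ins libraries and overlapped the Dex libraries. Its dexamethasone effect was -0.67 ± 0.07 with insulin and 0.33 ± 0.08 alone (log2, SE, n = 3 per group), so that both passed the test with opposite sign. The class held 2 transcripts without Veh library A, Veh library B, Dex library A, Ins library B or Ins library C, and 12 without Ins library A.

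The 7 transcripts outside the classes were moved in opposite directions by the single hormones, each past the test. In 3 of them dexamethasone alone raised and insulin alone lowered the level, and the combined level was below vehicle by log2 changes of -1.52 to -1.20. The most highly expressed of these 3 had 112.3, 109.3 and 101.5 CPM in Dex+Ins libraries, 1266, 1319 and 1407 CPM in Dex libraries, 40.8, 50.9 and 44.6 CPM in Ins libraries, and 254.5, 231.4 and 255.6 CPM in Veh libraries. The 4 groups did not overlap. Dexamethasone still raised it with insulin, by 1.24 ± 0.06 on the log2 scale, against 2.43 ± 0.06 alone, and insulin lowered it more with dexamethasone, by a log2 change of -3.63, than alone, at -2.44. In the other 4, dexamethasone alone lowered and insulin alone raised the level. Their dexamethasone effects were -1.51 to -0.61 with insulin and -1.04 to -0.36 alone. Insulin raised 1 of the 4 in the presence of dexamethasone (background 11.2%), while 3 did not pass. This group of 7 was as small as 2 without Veh library B, was 3 without Veh library A, Dex library A, Dex library C or Ins library B, and was 4 without Veh library C or Dex+Ins library C.

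Across the 63 negative interactions, 47 transcripts rose with dexamethasone alone (background 5.64%). The interaction subtracts that same effect, so a negative call favours transcripts that dexamethasone alone raised, and these counts are descriptions. Of these 47, dexamethasone in the presence of insulin raised 28 (background 8.78%), lowered 2 (background 11%) and left 17 not past the test. Insulin in the presence of dexamethasone lowered 44 (background 11.9%). Dex+Ins and Ins libraries did not overlap for 60 of the 72 transcripts, against 34.3% of all tested, and Dex and Veh libraries did not overlap for 60, against 26.9%. Dex+Ins and Dex libraries did not overlap for 65, against 36.7%, and Ins and Veh libraries did not overlap for 51, against 33.5%. The 72 were chosen by a test on these same libraries, which favours groups without overlap, so these counts are descriptions too. The median level of the 72 was 62.3 CPM, against 31.5 CPM over all tested, so the called transcripts were more deeply counted than most.

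**Figure D4:**
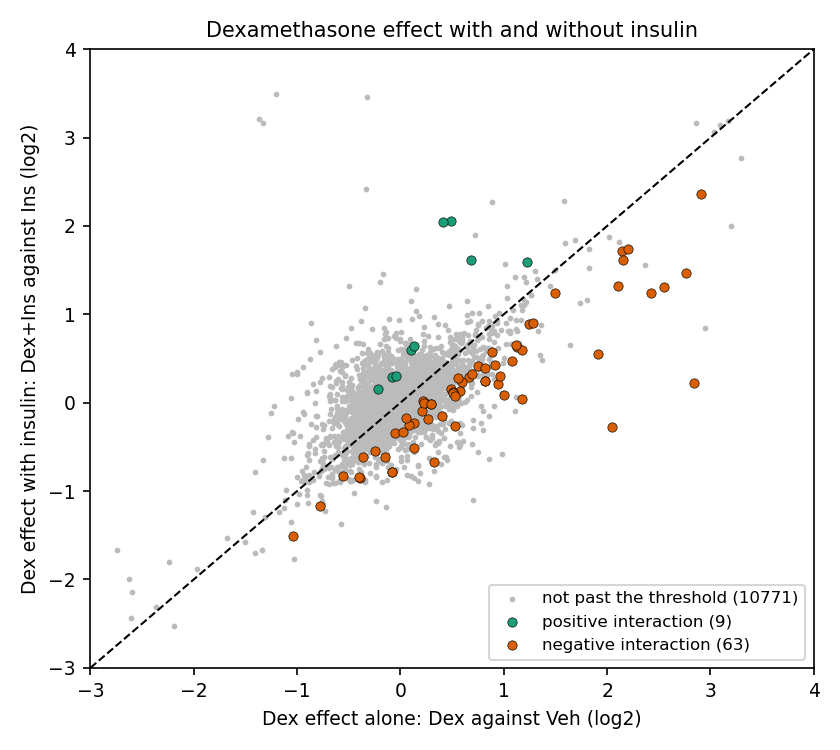
Log2 effect of dexamethasone with insulin (Dex+Ins against Ins, vertical axis) plotted against its effect alone (Dex against Veh, horizontal axis), 1 point per transcript, with the transcripts without a called interaction in grey and the 9 positive and 63 negative interactions in colour. Points on the dashed line have equal effects; the negative interactions lie below it and include 47 that rose with dexamethasone alone.

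The effects of dexamethasone with insulin and alone come from separate libraries, so they can be set side by side. Dexamethasone changed 2145 transcripts with insulin (19.8%), 952 higher and 1193 lower, against 1139 alone, 612 higher and 527 lower. Of those higher, 432 were higher in both, which is 45.4% of those with insulin and 70.6% of those alone. Of those lower, 390 were lower in both, which is 32.7% of those with insulin and 74% of those alone. Calls of opposite sign were found for 3 transcripts, each with a called interaction. The Pearson correlation of both log2 effects over 10843 transcripts was 0.606, which is a description across transcripts that share libraries. The count with insulin was 1293 without Ins library B and 1383 without Dex+Ins library C.

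Insulin changed 2506 transcripts with dexamethasone (23.1%), a count that was 1622 without Dex library A. Without dexamethasone the number was 1791, and 1167 without Ins library C. Higher in both were 583 transcripts, 47.9% of those with dexamethasone and 62.2% of those with insulin alone, and lower in both were 549, 42.6% and 64.4% of each. Here too, a call in only 1 of these contrasts is not a difference between them. In 1 transcript with a called interaction, insulin had effects of opposite sign, both past the test, at -0.18 with dexamethasone and 0.20 alone on the log2 scale. Both hormones together changed 3432 transcripts against vehicle (31.7%), 1743 higher and 1689 lower.

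With all 12 libraries, the choice of scale did not turn the sign of any called interaction. No test was run on the CPM scale. On the CPM scale, where additivity means that level differences and not fold changes add, the sign of Dex+Ins minus Dex minus Ins plus Veh was that of the log2 interaction for all 72 transcripts. For NM_001270850 this difference was 16.6 CPM and for NM_001009965 it was 158.7 CPM. For NM_001014071 it was -270.1 CPM and for NM_053551 it was -109.1 CPM.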

How the data were processed

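The rat libraries were analysed from the authors' deposited raw counts, which hold a row for each RefSeq transcript and a column for each library. The submitters' processing notes list STAR, HOMER, DESeq2, mm10 and rn5, and say nothing of their versions or of what each was used for. No source used here states whether strand was counted, so overlapping or antisense genes cannot be told apart, and isoform rows can count the same reads. Column names give the group and a letter, which was not tied to the labels' replicate numbers. None of the 18269 identifiers matched the name tables at hand (0 matches), so no symbols, coordinates or sequences are given.

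Rows at 0 in all libraries (2565) and repeats of identical rows (1573) were dropped, and edgeR's filterByExpr left 10843 rows, which held 96.1% to 96.4% of the counts of each library. TMM scaling and edgeR's quasi-likelihood test (edgeR 4.0.16, R 4.3.3) were fitted to all 12 libraries by group, with Benjamini-Hochberg adjustment over all rows tested. CPM values use TMM library sizes. Single effects, simple effects and the interaction are contrasts of this fit. The identifiers named were the 2 positive and 2 negative interactions with the smallest p among those called with a mean of at least 5 CPM and no library at 0. The members, classes and lists were chosen with earlier results of these data known, and which transcripts are described without identifiers was decided after their values were seen. No libraries of the same group were duplicates by a chi-square comparison of counts, and libraries of different groups were not compared in this way. Alternatives were other size factors, no filter, DESeq2 1.42.0, a replicate block, all rows as deposited, and each library left out; joining rows that agreed within 1% was added after seeing the data. The procedure was tested on simulated counts.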

Additional observations from a re-analysis of the deposited data

Results flagged for a closer look

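The 4 transcripts named above differ, by the test of the interaction itself, in their dexamethasone effect with and without insulin. The interaction was 1.63 for NM_001270850, 0.37 for NM_001009965, -1.24 for NM_001014071 and -2.32 for NM_053551 on the log2 scale. They were named by their small interaction p, so their sizes are not independent of that choice.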

How the results depend on the processing

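The 4 named interactions kept their direction and passed the threshold in all 18 alternatives. They ranged from 1.49 to 1.84 for NM_001270850, 0.34 to 0.40 for NM_001009965, -1.27 to -1.22 for NM_001014071 and -2.41 to -2.21 for NM_053551. The count of 72 was 73 with other size factors, 71 with all deposited rows, 69 with rows within 1% joined and 87 by DESeq2, which left 2108 adjusted p-values undefined. With no filter it was 92, with 16 positive interactions, 14 synergistic inductions and 1 blunted insulin repression. Of interactions at least 1.5-fold, 3 were synergistic inductions, 4 synergistic repressions, 9 blunted dexamethasone inductions, 2 blunted insulin inductions and 2 other. Leaving out each library gave 45 to 109 interactions, 5 to 13 positive, 40 to 96 negative, 5 to 12 synergistic inductions, 8 to 39 synergistic repressions, 2 to 12 blunted insulin inductions, 0 to 1 blunted insulin repressions and 2 to 6 other. It gave 1167 to 1972 calls for insulin alone, 1293 to 2414 for dexamethasone with insulin, 1622 to 2660 for insulin with dexamethasone, and 0 to 1 interactions of other sign on the CPM scale. The cause of these moves was not tested, and leaving out a library raised some counts and lowered others.

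With the column letter as a replicate block, 76 interactions passed, 9 positive and 67 negative, of which 67 were among the 72. Same-letter libraries of different groups had deviations correlated at -0.156 to 0.111, and different-letter libraries at -0.183 to 0.193, so no pairing by letter was detected. Deviations were taken from means of 3 libraries per group, so a weak pairing could be missed.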
